A study of Mus musculus with 16 samples.

Results

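The genes described here encode the proteasome. They were taken as every gene on the array whose name in the scanner files begins with Psma, Psmb, Psmc, Psmd or Psme and for which a probe exceeded background clearly, by the scanner software, in the ventricle RNA of 4 or more of the 16 arrays. The names matched 64 probes, of which 60 passed and 4 did not. The 4 were 1 further probe each of Psmc2, Psmd11, Psmd4 and Psme4, and they were above background on 0 of 16 arrays. The 60 probes stood for 43 genes, 42 of which were tested among the 11000 features of the whole data set; Psmd6 had too few values. The probes nearest to the limit belonged to Psmc3ip, with 4 and 5 arrays, and 53 of the 60 were above background on all 16 arrays. The samples were heart ventricles of 129Sv mice, either wild-type or CHIP-/-, taken 1 week after a sham operation or after trans-aortic banding (TAB), which narrows the aorta and loads the left ventricle with pressure. CHIP, the product of Stub1, is a ubiquitin ligase that acts together with chaperones. Each of the 4 groups (wild-type sham, wild-type TAB, CHIP-/- sham and CHIP-/- TAB) held 4 arrays, which the labels call biological replicates. Each array set Cy5-labelled ventricle RNA against Cy3-labelled RNA from whole neonatal mice of mixed 129Sv and C57BL/6 background, so a value is a log2 ratio of heart over that reference, and levels of different genes are not compared.

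The proteasome is the protease that degrades proteins tagged with ubiquitin. Its barrel-shaped core is built from rings of alpha subunits (Psma genes), which gate the entry, around rings of beta subunits (Psmb genes), of which Psmb5, Psmb6 and Psmb7 carry the constitutive proteolytic sites. A regulatory cap sits on the core. The base of the cap holds the ATPases that unfold and feed substrates (Psmc genes) and large scaffold and ubiquitin-binding subunits (Psmd1, Psmd2, Psmd4). Its lid (most other Psmd genes) removes ubiquitin, and Psmd5, Psmd9 and Psmd10 encode assembly chaperones of the cap. In cells exposed to interferon gamma, Psmb8, Psmb9 and Psmb10 replace the constitutive catalytic subunits to form the immunoproteasome, and the activator ring of Psme1 and Psme2 can replace the cap. In heart muscle the proteasome disposes of misfolded and damaged proteins, and CHIP is one of the ligases that mark such proteins.

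Between 27% and 37.7% of spots exceeded background in the ventricle RNA, and precision is limited by having 4 arrays a group. The 4 arrays of a group shared 1 of the 4 slides, and effects of slide and of group cannot be told apart. Stub1 was lower on all 8 CHIP-/- arrays than on all 8 wild-type arrays, with differences of -1.70 after sham and -1.33 after TAB. With TAB, Stub1 itself differed by -0.36 in wild type (limma, adjusted p = 0.0053), with all TAB arrays below all sham arrays. In CHIP-/- its TAB difference was 0.0033. The median log2 ratio of the 5 measured cardiomyocyte markers was 4.18 to 4.99 on 15 arrays, and 3.72 on CHIP-/- sham replicate 3, where Pln had no value. The atrial myosin light chain Myl7 stood apart on 3 sham arrays (wild-type replicate 1 at 3.82, wild-type replicate 3 at 1.89 and CHIP-/- replicate 1 at 2.20), and Y-linked transcripts were above background on 3 other sham arrays (wild-type sham replicate 4, CHIP-/- sham replicates 2 and 4). Calls lost without these arrays are given below.

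With TAB, proteasome genes moved in both directions, and the falls outnumbered the rises in CHIP-/- ventricle. In wild type 5 of 42 genes rose and 4 fell (limma, adjusted p below 0.05 over all features), against 18.7% of all features that rose and 17.1% that fell. In CHIP-/- 5 of 42 rose and 12 fell, against 24% and 23.2% of all features. The median difference over the 42 genes was 0.01 in wild type and -0.07 in CHIP-/-, beside all-feature medians of 0.0012 and -0.0060. The CHIP-/- median was -0.03 without CHIP-/- TAB replicate 4 and -0.05 without replicate 1, and that of wild type lay between -0.0064 and 0.03 with any 1 array left out. The regulatory cap made up 21 of the 42 measured genes and held most of the falls. In wild type 0 of the 21 rose and 4 fell, the falls being near the 17.1% share of all features. In CHIP-/- 2 of the 21 rose and 9 fell, against 24% and 23.2% of all features. Of the 15 core genes 3 rose and 0 fell in wild type, against 18.7% and 17.1% of all features. In CHIP-/- 2 of the 15 rose and 2 fell, against 24% and 23.2%. These values are from bulk tissue, where fewer cells of a type and less RNA per cell cannot be told apart. The falls kept their direction under every alternative tried, but the rises depend on the scaling: when arrays were centred on their median in place of loess, which corrects ratios along the intensity range, 0 genes passed as higher in either genotype and 20 (wild type) and 32 (CHIP-/-) of 42 passed as lower. That scaling shifted the median of all features to -0.19 in wild type and -0.22 in CHIP-/-, and the medians of the 42 genes to -0.30 and -0.44, so that 3.48% and 6.31% of features passed as higher and 36.3% and 45.2% as lower.

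**Figure D1:**
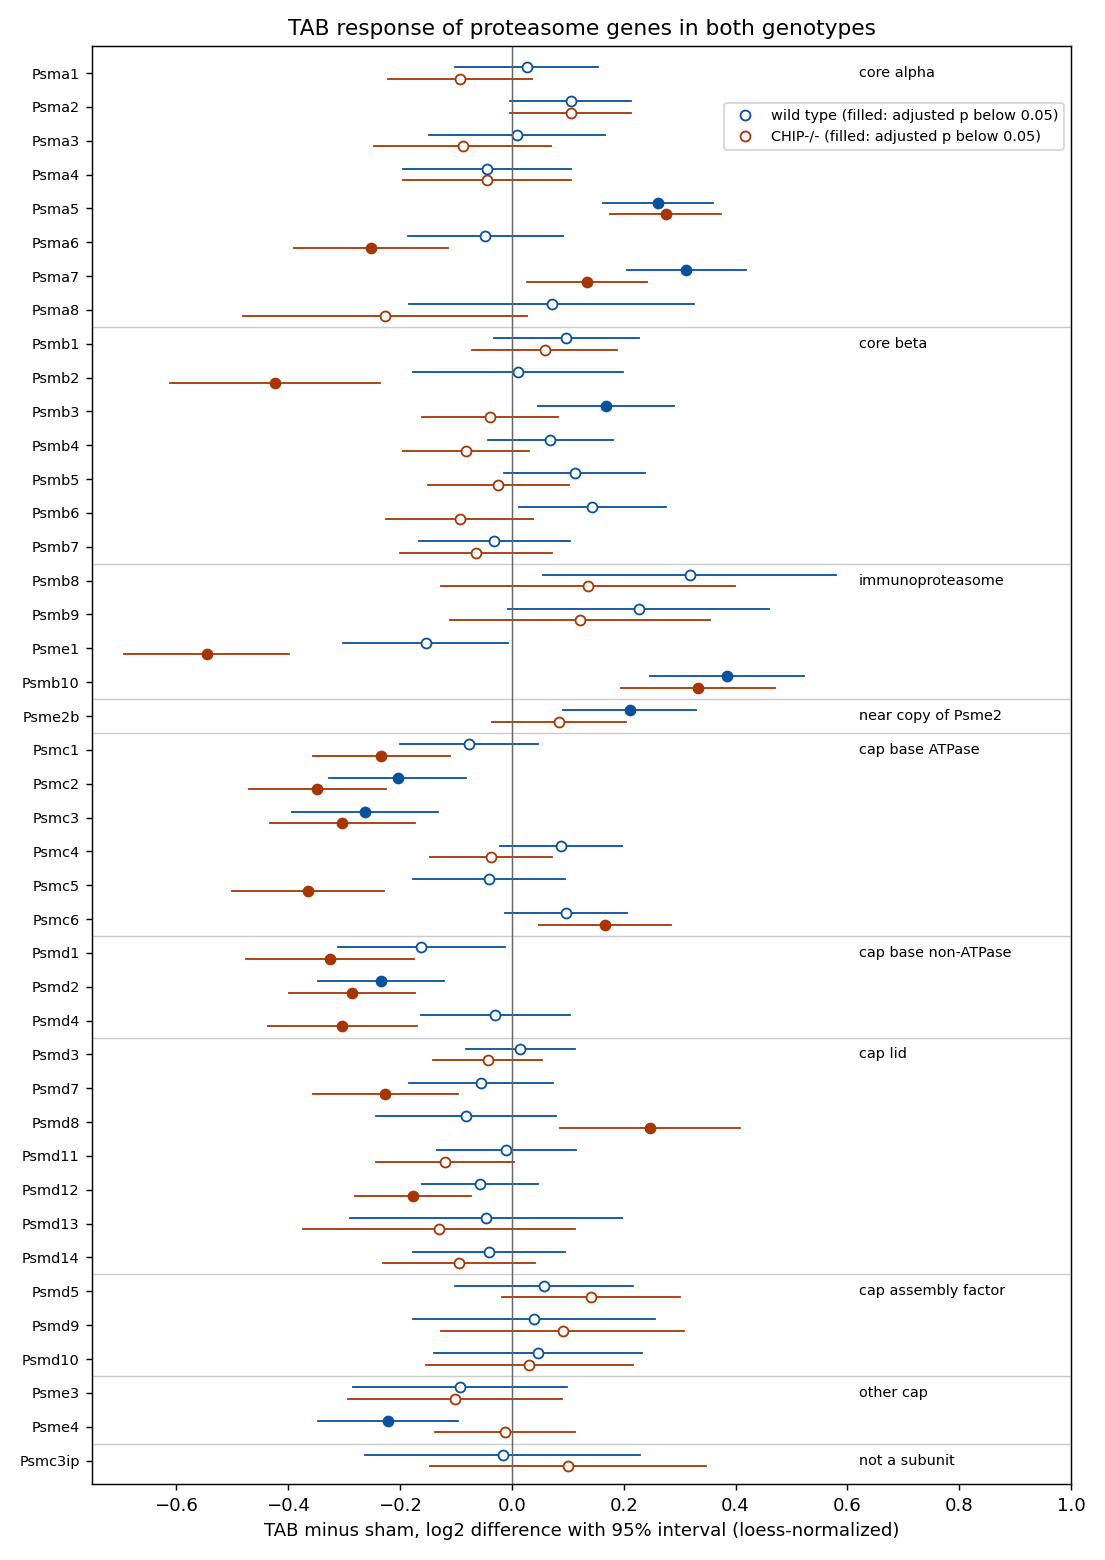
TAB minus sham (log2 difference of loess-normalized ratios, with 95% intervals) for the 42 tested genes in wild type (blue) and CHIP-/- (brown), grouped by role; filled points passed an adjusted p of 0.05. Psme1 at -0.55 in CHIP-/- lies farthest below 0 and Psmb10 at 0.38 in wild type farthest above it, and every filled rise but Psmb10 in wild type turns to the other side of 0 under median centring.

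Among the alpha subunits, Psma5 and Psma7 rose with TAB in both genotypes. Psma5 read -0.90, -0.87, -0.80 and -0.83 on the sham arrays of wild type and -0.61, -0.63, -0.60 and -0.53 on its TAB arrays; the CHIP-/- arrays read -0.82, -0.84, -0.84 and -0.86 (sham) and -0.53, -0.54, -0.57 and -0.61 (TAB). Every TAB array lay above every sham array of its genotype, and the difference was 0.26 in wild type (SE 0.05, adjusted p = 0.00018) and 0.27 in CHIP-/- (SE 0.05, adjusted p = 5.3e-05). Psma7 read 0.65, 0.63, 0.62 and 0.62 on the sham arrays of wild type and 1.04, 0.84, 0.96 and 0.91 on its TAB arrays; the CHIP-/- arrays read 0.79, 0.70, 0.71 and 0.68 (sham) and 0.85, 0.90, 0.85 and 0.82 (TAB). It rose by 0.31 in wild type (adjusted p = 5.6e-05) and by 0.13 in CHIP-/- (adjusted p = 0.035). The groups did not overlap in either genotype, yet the smaller CHIP-/- rise missed the threshold when any of 6 single arrays was left out (CHIP-/- sham replicates 2, 3 and 4 and CHIP-/- TAB replicates 1, 2 and 3; adjusted p up to 0.089), and the difference between the genotypes' responses, -0.18, did not pass (adjusted p = 0.18). Under median centring both genes read below 0 in both genotypes (Psma5 -0.15 and -0.22, Psma7 -0.08 and -0.35). Relative to the shift of all features, Psma5 then stood at 0.04 in wild type and -0.0043 in CHIP-/-, and Psma7 at 0.11 and -0.13. Psma6 fell in CHIP-/- by 0.25 (SE 0.07, adjusted p = 0.0034), with all TAB arrays (-0.59 to -0.48) below all sham arrays (-0.36 to -0.20), and its wild-type difference was -0.05 (adjusted p = 0.62). The other alpha subunits, Psma1, Psma2, Psma3, Psma4 and the testis-enriched Psma8, had differences from -0.23 to 0.11 and passed in neither genotype. Psma8 was above background on 3 wild-type sham, 2 wild-type TAB and 3 CHIP-/- sham arrays and on no CHIP-/- TAB array.

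On the brightest probes, Psmb2 was the one constitutive beta subunit that fell, and it did so in CHIP-/-. It is a beta-ring subunit without a proteolytic site. A second probe of Psmb3, given below, fell in both genotypes. Psmb2 read 0.55, 0.36, 0.41 and 0.43 on the sham arrays of wild type and 0.47, 0.35, 0.43 and 0.54 on its TAB arrays; the CHIP-/- arrays read 0.44, 0.71, 0.48 and 0.62 (sham) and 0.09, 0.18, 0.35 and -0.06 (TAB). The CHIP-/- groups did not overlap, and Psmb2 fell there by 0.42 (SE 0.09, adjusted p = 0.00054), a ratio of 0.746. The wild-type difference was 0.01, with a 95% interval from -0.18 to 0.20. Psmb3, another structural subunit, passed as higher in wild type at 0.17 (adjusted p = 0.029). Its sham arrays (-0.04 to 0.15) and TAB arrays (0.09 to 0.31) overlapped, and the call was lost without wild-type sham replicate 2 or 4 or wild-type TAB replicate 1 or 3 (adjusted p up to 0.094) and reversed to -0.25 under median centring. Psmb1 and Psmb4 had differences from -0.08 to 0.10 and did not pass.

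The 3 constitutive catalytic subunits did not pass the test in any comparison. Psmb5 forms the chymotrypsin-like site. Psmb5 read 0.26, 0.31, 0.23 and 0.24 on the sham arrays of wild type and 0.46, 0.26, 0.39 and 0.39 on its TAB arrays; the CHIP-/- arrays read 0.35, 0.33, 0.26 and 0.36 (sham) and 0.26, 0.42, 0.37 and 0.15 (TAB). Psmb6 forms the caspase-like site. Psmb6 read -0.18, -0.18, -0.18 and -0.32 on the sham arrays of wild type and 0.01, -0.20, -0.08 and -0.0030 on its TAB arrays; the CHIP-/- arrays read -0.15, -0.09, -0.16 and -0.27 (sham) and -0.41, -0.19, -0.25 and -0.20 (TAB). Psmb7 forms the trypsin-like site. Psmb7 read 0.62, 0.86, 0.78 and 0.83 on the sham arrays of wild type and 0.72, 0.82, 0.68 and 0.76 on its TAB arrays; the CHIP-/- arrays read 0.76, 0.74, 0.88 and 0.73 (sham) and 0.70, 0.74, 0.77 and 0.65 (TAB). For all 3 genes the arrays of the groups overlapped in every comparison. The TAB difference in wild type was 0.11 for Psmb5 (95% interval -0.01 to 0.24), 0.14 for Psmb6 (0.01 to 0.28, adjusted p = 0.081) and -0.03 for Psmb7 (-0.17 to 0.10). In CHIP-/- it was -0.02 (-0.15 to 0.10), -0.09 (-0.22 to 0.04) and -0.06 (-0.20 to 0.07). After TAB, Psmb6 differed by -0.19 between CHIP-/- and wild type, which did not pass (adjusted p = 0.056).

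The genes of the immunoproteasome did not move as one group. Psmb10, its trypsin-like subunit, rose in both genotypes, while Psme1, a subunit of the activator ring, fell in CHIP-/-. Psmb10 read 0.68, 0.47, 0.58 and 0.72 on the sham arrays of wild type and 0.90, 1.03, 1.08 and 0.97 on its TAB arrays; the CHIP-/- arrays read 0.76, 0.61, 0.48 and 0.70 (sham) and 0.98, 0.99, 0.90 and 1.00 (TAB). All TAB arrays lay above all sham arrays. The rise was 0.38 in wild type (SE 0.07, adjusted p = 9e-05, a ratio of 1.31) and 0.33 in CHIP-/- (SE 0.07, adjusted p = 0.00025, a ratio of 1.26), and the difference between them was -0.05 (95% interval -0.25 to 0.14). Under median centring Psmb10 stood at 0.04 and -0.09, which is 0.23 and 0.13 above the median of all features, and did not pass. Psmb8 is the chymotrypsin-like subunit. Psmb8 read 0.41, 0.27, 0.31 and 0.53 on the sham arrays of wild type and 0.63, 0.55, 1.07 and 0.55 on its TAB arrays; the CHIP-/- arrays read 0.53, 0.70, 0.67 and 0.65 (sham) and 0.92, 0.72, 1.09 and 0.37 (TAB). The wild-type groups did not overlap, and their difference of 0.32 (SE 0.13) had an adjusted p of 0.054. It was 0.19 without wild-type TAB replicate 3, and it passed without any 1 of 5 other arrays (wild-type sham replicate 4, wild-type TAB replicates 2 and 4, CHIP-/- TAB replicates 3 and 4). In CHIP-/- the groups overlapped (0.14, adjusted p = 0.4). Psmb9 is the counterpart of Psmb6. Psmb9 read 0.63, 0.17, 0.31 and 0.19 on the sham arrays of wild type and 0.46, 0.61, 0.81 and 0.34 on its TAB arrays; the CHIP-/- arrays read 0.52, 0.52, 0.65 and 0.72 (sham) and 0.68, 0.57, 0.98 and 0.68 (TAB). The groups overlapped, and the differences of 0.23 (adjusted p = 0.12) and 0.12 (adjusted p = 0.4) did not pass. Without wild-type sham replicate 1 the wild-type difference was 0.33 (adjusted p = 0.026), and without wild-type TAB replicate 3 it was 0.14. Without the 3 arrays of high Myl7 it was 0.37 (adjusted p = 0.043).

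Psme1 read 1.26, 1.33, 1.32 and 1.37 on the sham arrays of wild type and 1.33, 1.11, 1.19 and 1.03 on its TAB arrays; the CHIP-/- arrays read 1.36, 1.42, 1.37 and 1.502 (sham) and 0.80, 1.08, 0.83 and 0.75 (TAB). The CHIP-/- TAB arrays thus lay below all sham arrays of both genotypes. The fall in CHIP-/- was 0.55 (SE 0.07, adjusted p = 1.3e-06, a ratio of 0.685), and it was the largest of the 42 genes in either genotype. The wild-type difference was -0.15 (SE 0.07, adjusted p = 0.096). With median centring the CHIP-/- difference was -1.02, and -0.80 relative to the median of all features. No probe named Psme2 was among the 64. The files name 2 probes Psme2b-ps, now Psme2b, a near-identical copy of Psme2, and which of the 2 genes they read cannot be told. The brighter rose in wild type by 0.21 (adjusted p = 0.006), with sham arrays at 0.16 to 0.33 and TAB arrays at 0.34 to 0.54, and stood at 0.08 in CHIP-/- (adjusted p = 0.24). Its wild-type value was -0.19 under median centring, and the other probe gave 0.08 (adjusted p = 0.3).

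**Figure D2:**
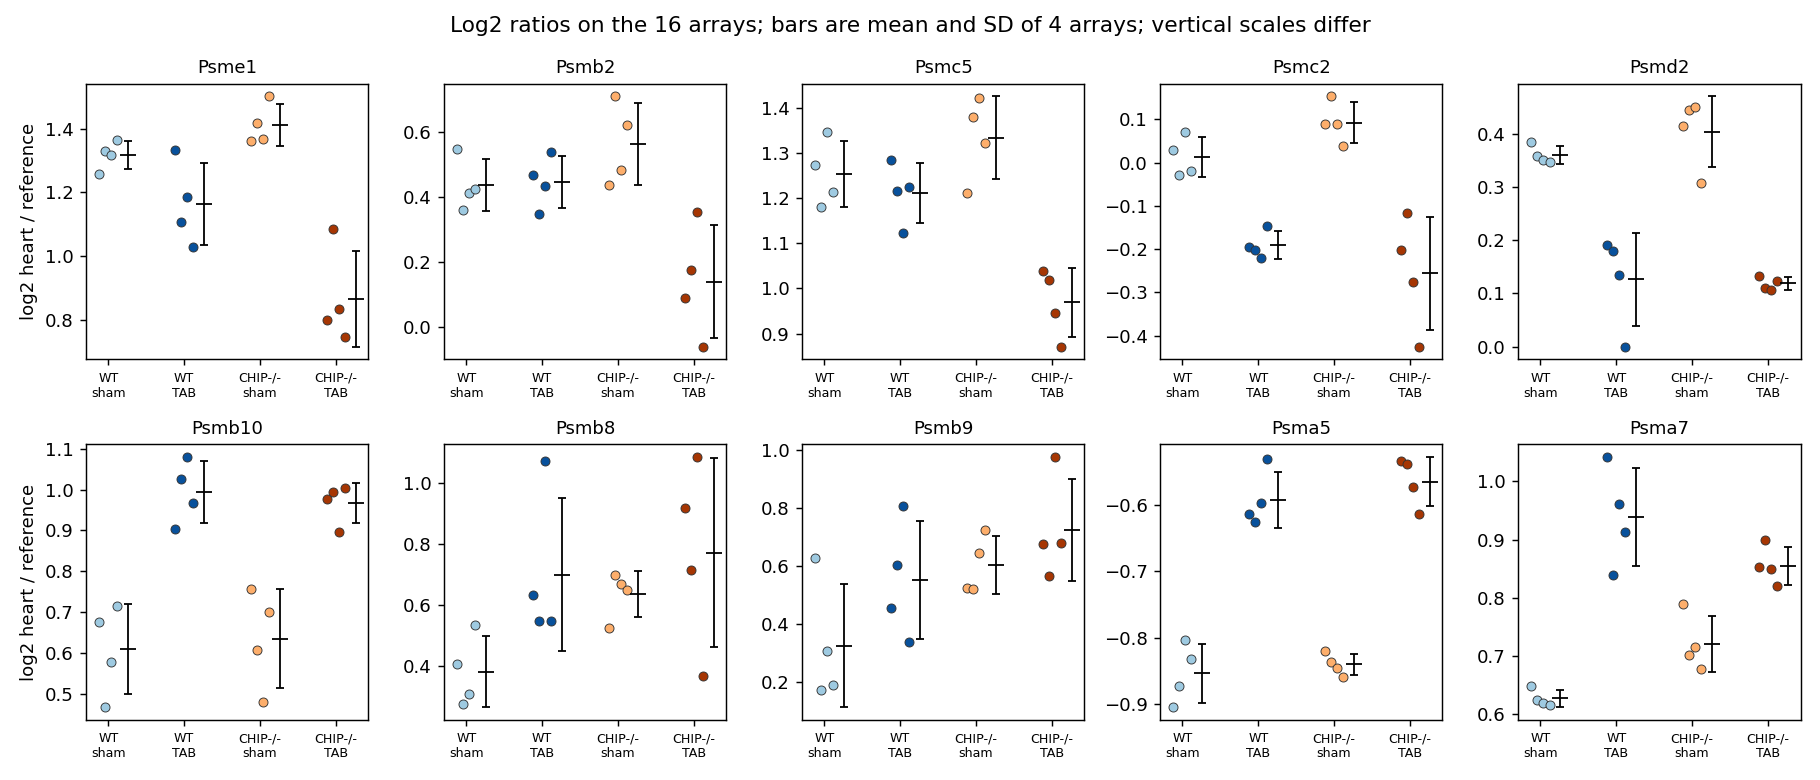
Log2 ratios of heart over reference on each of the 16 arrays for 10 proteasome genes, with mean and SD of the 4 arrays of a group beside the points; each panel has its own vertical scale. In CHIP-/- TAB, Psme1 averages 0.87 against 1.41 in CHIP-/- sham and Psmb2 0.14 against 0.56, while Psmb10 averages 0.97 against 0.64, a rise that reads -0.09 under median centring.

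Markers of leukocytes, in which the immunoproteasome is abundant, moved with TAB as well. Of 9 measured of 11 macrophage and leukocyte markers, 5 rose in wild type and 9 in CHIP-/-, against 18.7% and 24% of all features. The markers' median log2 ratio on an array was -0.25 to -0.15 in wild-type sham and 0.01 to 0.23 in wild-type TAB. It was -0.36 to -0.23 in CHIP-/- sham and 0.43 to 0.86 in CHIP-/- TAB. Itgam was above background on 0 arrays, as were the lymphocyte markers Cd3e, Cd3g, Cd79a, Cd79b, Cd4, Cd8a and Nkg7. The median of the 4 immunoproteasome genes, the falling Psme1 included, ran from 0.37 to 0.65 in wild-type sham and 0.76 to 1.08 in wild-type TAB. It ran from 0.64 to 0.71 in CHIP-/- sham and 0.71 to 0.94 in CHIP-/- TAB. The marker medians were higher in CHIP-/- TAB than in wild-type TAB on every array. Values of Psmb8, Psmb9 and Psmb10 overlapped between those groups. The part of these cells in the immunoproteasome values was not tested. Cardiomyocyte markers also moved with TAB. Of 5 measured of 7, 4 (Myh6, Pln, Ryr2 and Actc1) fell in both genotypes, against 17.1% and 23.2% of all features. Tnnt2 rose in CHIP-/-, and Tnni3 and Myl2, above background on 16 arrays, were not tested. The median of the 5 on an array was 4.67 to 4.88 in wild-type sham and 4.73 to 4.99 in wild-type TAB. It was 3.72 (replicate 3, without Pln) to 4.91 in CHIP-/- sham and 4.18 to 4.65 in CHIP-/- TAB. Of 4 fibroblast markers 3 (Col1a1, Col3a1 and Dcn) rose in both genotypes, against 18.7% and 24% of all features. The medians of the 4 were 0.66 and 1.33, and Pdgfra did not pass. Of 4 endothelial markers 3 rose in wild type and 2 in CHIP-/-, against 18.7% and 24% of all features. After TAB all 4 read lower in CHIP-/- (median -0.31), where 6.35% of all features passed as lower and, of the 4, Kdr alone (-0.48). Its interaction was -0.54 (adjusted p = 0.013). The endothelial medians on an array were 0.66 to 0.82 in wild type and 0.70 to 0.83 in CHIP-/- after sham, and 0.80 to 1.24 and 0.54 to 0.78 after TAB. The part of these cell types in the falls of proteasome genes, Psmb2, Psme1 and Psmc5 included, was not tested.

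**Figure D3:**
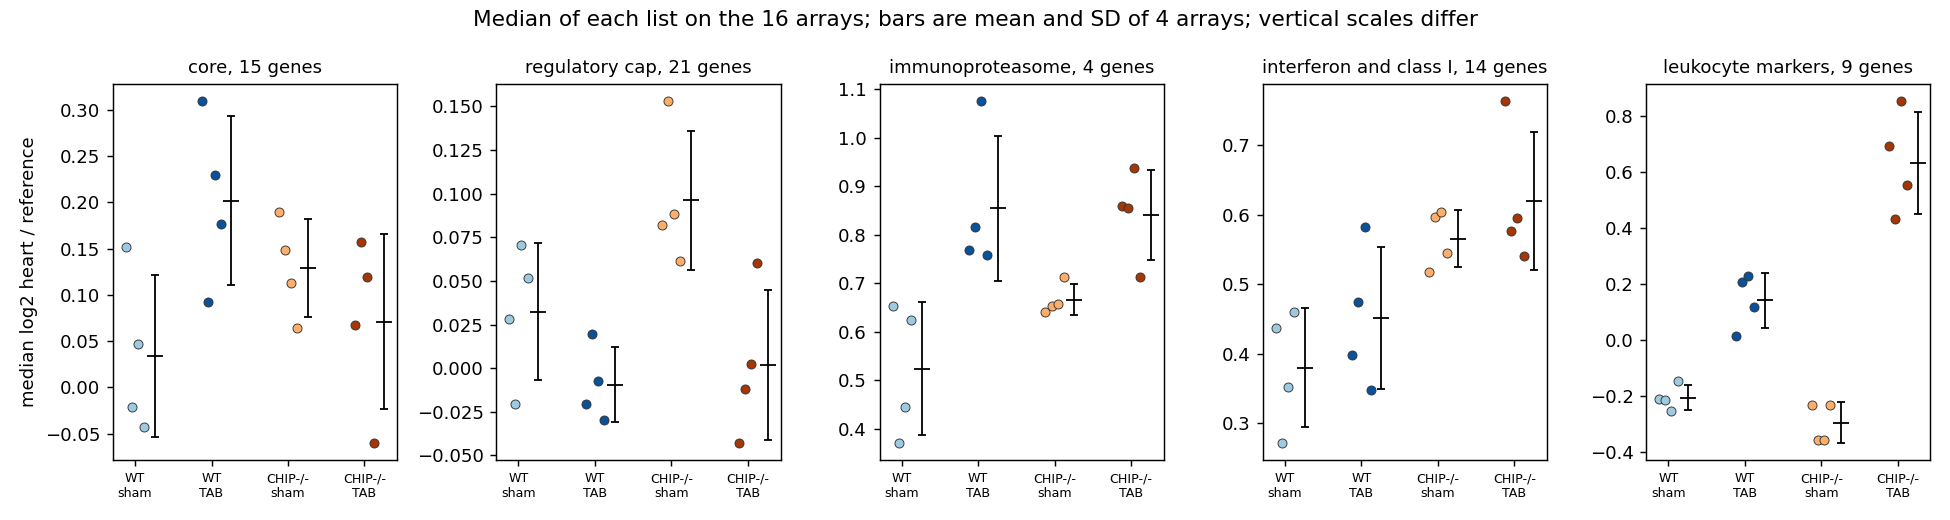
Median log2 ratio over the genes of 5 lists on each of the 16 arrays, with mean and SD of the 4 arrays of a group; vertical scales differ. Leukocyte markers average 0.63 in CHIP-/- TAB and 0.14 in wild-type TAB. The 4 immunoproteasome genes, of which Psme1 fell in CHIP-/-, average 0.84 and 0.85. The part of leukocytes in these values was not tested.

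In the base of the cap, 4 of 6 ATPase genes and all 3 scaffold and ubiquitin-binding subunits fell with TAB in CHIP-/-, and 2 and 1 of them fell in wild type, against 23.2% and 17.1% of all features. Psmc2 read 0.03, -0.03, 0.07 and -0.02 on the sham arrays of wild type and -0.20, -0.20, -0.22 and -0.15 on its TAB arrays; the CHIP-/- arrays read 0.09, 0.15, 0.09 and 0.04 (sham) and -0.20, -0.12, -0.28 and -0.42 (TAB). It fell by 0.20 in wild type (SE 0.06, adjusted p = 0.0092) and 0.35 in CHIP-/- (SE 0.06, adjusted p = 4.1e-05), without overlap of the arrays in either. Psmc3 read 0.42, 0.35, 0.48 and 0.36 on the sham arrays of wild type and 0.23, 0.22, 0.12 and -0.01 on its TAB arrays; the CHIP-/- arrays read 0.43, 0.37, 0.37 and 0.31 (sham) and 0.01, 0.13, 0.0024 and 0.13 (TAB). It fell by 0.26 (adjusted p = 0.0022) and 0.30 (adjusted p = 0.00036), again with no overlap.

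The ATPase Psmc5 fell in CHIP-/- by 0.36 (SE 0.07, adjusted p = 7.9e-05), while its wild-type difference was -0.04 (95% interval -0.18 to 0.09). Psmc5 read 1.27, 1.18, 1.35 and 1.21 on the sham arrays of wild type and 1.28, 1.22, 1.12 and 1.22 on its TAB arrays; the CHIP-/- arrays read 1.21, 1.38, 1.42 and 1.32 (sham) and 1.04, 1.02, 0.95 and 0.87 (TAB). The CHIP-/- TAB arrays lay below the other 12. Psmc1 fell in CHIP-/- by 0.23 (adjusted p = 0.0025) and Psmc4 passed in neither genotype (0.09 and -0.04). Psmc6 ran the other way and passed as higher in CHIP-/- at 0.17 (adjusted p = 0.019, 3 sham arrays); the call was lost without CHIP-/- sham replicate 3 or 4 (adjusted p up to 0.087), and median centring gave -0.36. Psmd2 is a scaffold of the base. Psmd2 read 0.38, 0.36, 0.35 and 0.35 on the sham arrays of wild type and 0.19, 0.18, 0.14 and 0.0001 on its TAB arrays; the CHIP-/- arrays read 0.41, 0.44, 0.45 and 0.31 (sham) and 0.13, 0.11, 0.11 and 0.12 (TAB). It fell by 0.23 (adjusted p = 0.0017) and 0.29 (adjusted p = 0.00015). Psmd1 is the other large scaffold. Psmd1 read 0.38, 0.47, 0.36 and 0.43 on the sham arrays of wild type and 0.36, 0.13, 0.39 and 0.10 on its TAB arrays; the CHIP-/- arrays read 0.48, 0.48, 0.56 and 0.44 (sham) and 0.19, 0.25, 0.15 and 0.06 (TAB). It fell in CHIP-/- by 0.33 (adjusted p = 0.00076), and the overlapping wild-type groups differed by -0.16 (adjusted p = 0.086). The ubiquitin receptor Psmd4 fell in CHIP-/- by 0.30 (adjusted p = 0.00047), with TAB arrays at -0.54 to -0.36 and sham arrays at -0.29 to -0.01, and differed by -0.03 in wild type.

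In the lid, 2 of 7 tested genes fell and 1 rose in CHIP-/-, beside 23.2% and 24% of all features, and 0 passed in wild type. Psmd7, the partner of the deubiquitinase Psmd14, fell by 0.23 (adjusted p = 0.0047), and Psmd12 by 0.18 (adjusted p = 0.0058), in each case on the brightest of 3 probes only. Psmd8 passed as higher by 0.25 (adjusted p = 0.012), with sham arrays at -0.57 to -0.39 and TAB arrays at -0.29 to -0.15, but read -0.07 under median centring, which is 0.15 above the shift of all features. Psmd3, Psmd11, Psmd13 and Psmd14 had differences from -0.13 to 0.01 in both genotypes. The lid gene Psmd6 was not tested because outlier marks removed 2 of its CHIP-/- sham values. It read 0.11, -0.01, 0.12 and 0.10 after sham and 0.18, 0.06, 0.09 and 0.06 after TAB in wild type, and 0.08 and 0.16 (sham) and -0.06, 0.17, 0.15 and 0.04 (TAB) in CHIP-/-, and the groups overlapped. The assembly chaperones of the cap, Psmd5, Psmd9 and Psmd10, had differences from 0.03 to 0.14 and passed in neither genotype. Of the alternative caps, Psme3 did not pass (-0.09 and -0.10). Psme4 is the large single-chain activator. Psme4 read 1.37, 1.38, 1.38 and 1.19 on the sham arrays of wild type and 1.17, 1.10, 1.03 and 1.13 on its TAB arrays; the CHIP-/- arrays read 1.24, 1.32, 1.24 and 1.27 (sham) and 1.38, 1.13, 1.20 and 1.31 (TAB). It fell in wild type by 0.22 (adjusted p = 0.0062) and not in CHIP-/- (-0.01, 95% interval -0.14 to 0.11), and the difference between these responses, 0.21, did not pass (adjusted p = 0.17). Psmc3ip, which matches the name rule but encodes a meiotic recombination factor, was above background on 5 arrays and did not pass.

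The 4 wild-type falls, Psmc2, Psmc3, Psmd2 and Psme4, each passed with any 1 array left out. Without the 3 arrays of high Myl7, which leaves 2 wild-type sham arrays, Psmd2 alone passed, and Psmc3 (-0.21, adjusted p = 0.06), Psmc2 (-0.17, adjusted p = 0.13) and Psme4 (-0.17, adjusted p = 0.12) did not. The 12 falls in CHIP-/- (Psme1, Psmb2, Psmc5, Psmc2, Psmd1, Psmd4, Psmc3, Psmd2, Psma6, Psmc1, Psmd7 and Psmd12) also passed with any 1 array left out, and without the high-Myl7 arrays. Without the 3 arrays with Y-linked transcripts, Psmc1 (-0.16, adjusted p = 0.096) and Psmd12 (-0.16, adjusted p = 0.056) missed the threshold, and so did 3 of the 5 rises (Psma7, Psmc6 and Psmd8). The wild-type rise of Psmb3 was lost too (0.14, adjusted p = 0.1).

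**Figure D4:**
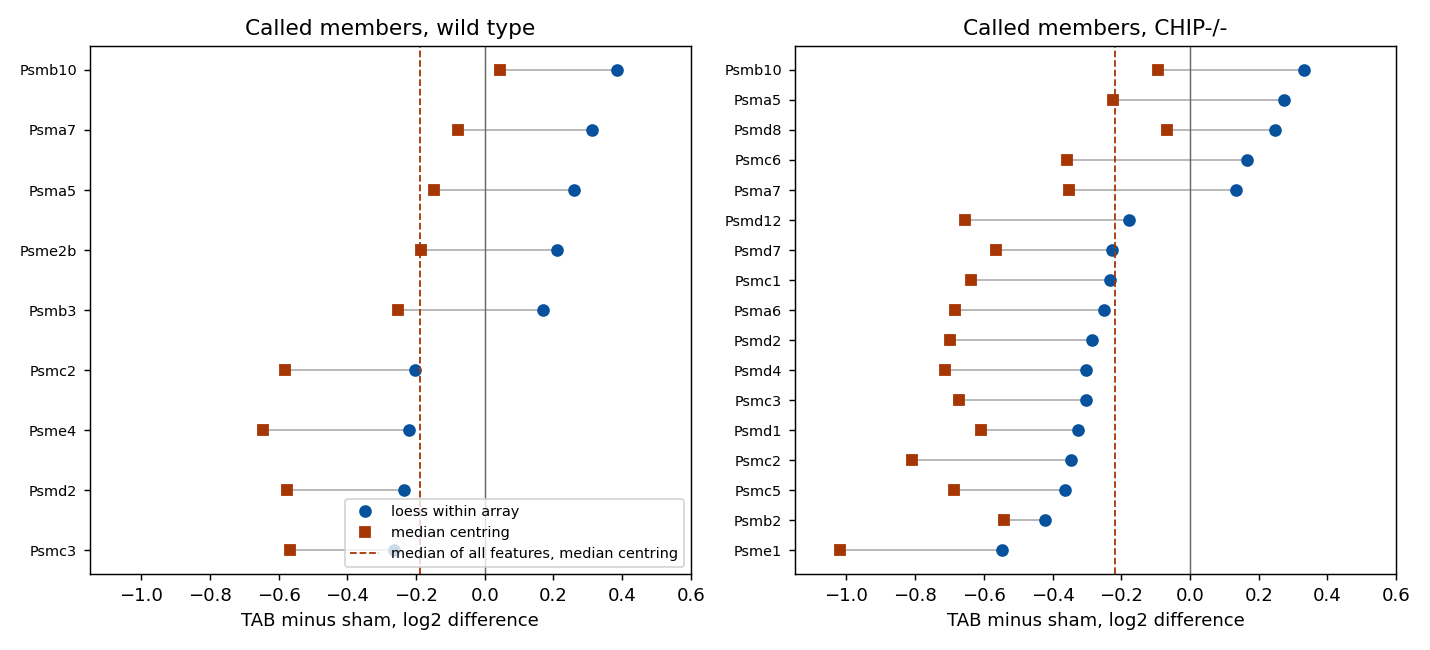
TAB minus sham (log2 difference) of the genes that passed in wild type (left) and CHIP-/- (right), after loess within arrays (circles) and after median centring (squares); the dashed line is the median of all 11000 features under median centring. Falls lie left of 0 under both scalings and left of the dashed line under median centring, and the rises cross 0 under median centring save Psmb10 in wild type at 0.04.

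Between the genotypes, no proteasome gene differed after sham. In limma's fit 0 of 42 genes passed in either direction, against 0.0273% of all features (3 of 11000), and 0 passed under every alternative. At an unadjusted p below 0.05 there were 3: Psmb9 (0.28, adjusted p = 0.49), Psmd11 (0.15, adjusted p = 0.47) and Psmd8 (-0.19, adjusted p = 0.48). The median difference was 0.04, beside -0.01 (-0.0077) for all features. After TAB, 0 genes were higher and 3 were lower in CHIP-/-, against 5.31% of all features higher and 6.35% lower. Psmb2 differed by -0.31 (SE 0.09, adjusted p = 0.029), Psme1 by -0.30 (SE 0.07, adjusted p = 0.0073) and Psmc5 by -0.24 (SE 0.07, adjusted p = 0.017). All Psmc5 arrays of CHIP-/- TAB lay below those of wild-type TAB, whereas for Psme1 and Psmb2 the groups overlapped at 1 array of CHIP-/- TAB, replicate 2 and replicate 3. The Psme1 difference passed with any 1 array left out (adjusted p up to 0.036). The Psmb2 difference was lost without wild-type TAB replicate 1, 3 or 4 or CHIP-/- TAB replicate 1 or 4 (adjusted p up to 0.1), and that of Psmc5 without wild-type TAB replicate 1 or CHIP-/- TAB replicate 4 (adjusted p up to 0.059). The 3 differences kept their sign but did not pass under median centring (-0.22, -0.31 and -0.22 for Psmb2, Psme1 and Psmc5). With the authors' processed signals Psmb2 (-0.45) and Psmc5 (-0.20) also missed the threshold (adjusted p = 0.091 for both), as they did with the deposited log2 ratios (adjusted p = 0.088 for both), and Psmb2 missed it with no filter on dim probes (adjusted p = 0.077).

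The same 3 genes differed in their response to TAB. The interaction (difference with TAB in CHIP-/- less the one in wild type) was -0.43 for Psmb2 (SE 0.13, adjusted p = 0.049), -0.39 for Psme1 (SE 0.10, adjusted p = 0.023) and -0.32 for Psmc5 (SE 0.09, adjusted p = 0.043), and 5.45% of all features passed in either direction. It stood close to the threshold: with 1 array left out, Psme1 passed in 12 of 16 cases, Psmb2 in 5 and Psmc5 in 5, and all 3 stayed negative. Without the 3 arrays with Y-linked transcripts none of the 3 passed (Psme1 -0.36, Psmb2 -0.33, Psmc5 -0.29), and without the 3 of high Myl7 Psmc5 alone did. The 4 arrays whose omission ended the Psme1 call were CHIP-/- sham replicate 4, wild-type TAB replicate 1 and CHIP-/- TAB replicates 1 and 3 (adjusted p 0.052 to 0.054). Psmd4 (-0.27, adjusted p = 0.084) and Psmd8 (0.33, adjusted p = 0.086) missed the threshold. Over the 42 genes the median interaction was -0.11, against a median of 0.00 for all features.

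For 14 genes several probes passed the filter, and for some they gave different values. All calls above are those of the brightest probe. In wild type 5 of the 14 genes had probes with different calls, and in CHIP-/- 6. Psmb3's other probe fell with TAB in wild type by 0.22 (adjusted p = 0.032), where the brightest passed as higher by 0.17. It read 0.05, -0.21, -0.10 and -0.24 in sham and -0.24, -0.53, -0.29 and -0.31 in TAB, and it fell in CHIP-/- by 0.29 (adjusted p = 0.0043). Psmc6's other probe fell in CHIP-/- by 0.29 (adjusted p = 0.0076), where the brightest passed as higher. It read 0.63, 0.74, 0.60 and 0.74 after sham and 0.20, 0.27, 0.48 and 0.58 after TAB. The direction of Psmb3 and Psmc6 is therefore not settled by these arrays. Psmd7 and Psmd12 were each read by 2 further probes, none of which passed in CHIP-/- (Psmd7 -0.11 and -0.26, adjusted p = 0.22 and 0.1; Psmd12 -0.17 and 0.10, adjusted p = 0.23 and 0.43), so their falls rest on the brightest probe alone. Psmd2's fell in both genotypes (-0.35, adjusted p = 0.004, and -0.34, adjusted p = 0.0031), and Psmc5's fell in CHIP-/- (-0.34, adjusted p = 0.0038) with an interaction of -0.14 (adjusted p = 0.65). Psmd14's fell in both genotypes (-0.30, adjusted p = 0.0014, and -0.17, adjusted p = 0.039). One further Psme4 probe fell in both genotypes (-0.39, adjusted p = 0.0011, and -0.26, adjusted p = 0.015), whereas the brightest did not pass in CHIP-/-. Psmb8's second probe passed as higher in wild type (0.27, adjusted p = 0.047). Psme1, Psmb2 and Psmb10 were each read by 1 probe.

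**Figure D5:**
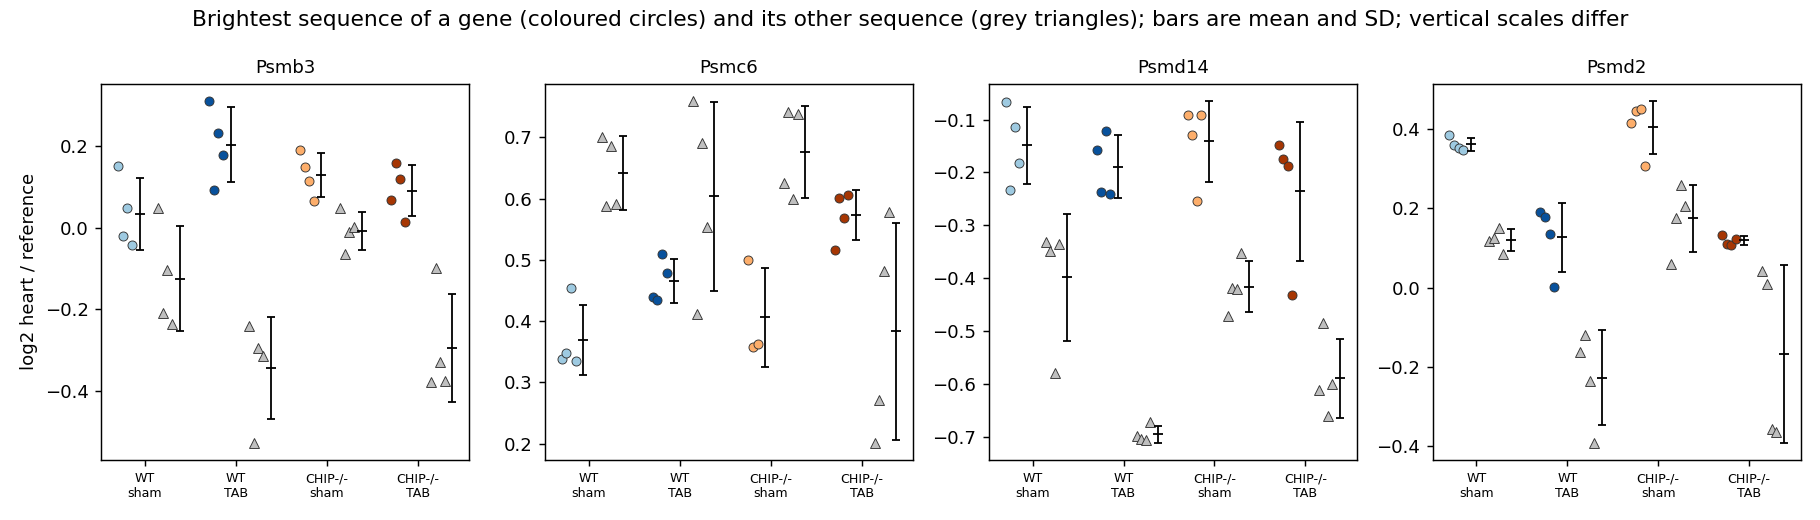
Log2 ratios on the 16 arrays for the brightest probe (coloured circles) and another probe (grey triangles) of 4 genes, with mean and SD of each group; vertical scales differ. The probes of Psmb3 move apart in wild-type TAB (0.17 and -0.22), those of Psmc6 in CHIP-/- TAB (0.17 and -0.29), and those of Psmd2 fall together; the Psmb3 and Psmc6 rises turn negative under median centring.

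Genes that assemble, dock to or regulate the proteasome, listed apart from the name rule, also moved both ways. Values of these lists and of the markers above are given after loess only and were not recomputed under median centring. Of 24 measured of 25, 2 rose and 6 fell with TAB in wild type, against 18.7% and 17.1% of all features. In CHIP-/- 5 rose and 9 fell, against 24% and 23.2%. The median differences of the 24 were -0.07 in wild type and -0.15 in CHIP-/-. The cap subunit Sem1 rose by 0.44 and 0.39 and the core's maturation factor Pomp by 0.28 and 0.41, all with adjusted p of 0.00028 or less. The segregase Vcp, which extracts ubiquitinated proteins for degradation, fell by 0.34 and 0.47, and the core assembly chaperone Psmg2 by 0.32 and 0.31. The ubiquitin-binding Zfand5, a proteasome activator of muscle, fell in CHIP-/- by 0.57 (adjusted p = 1.9e-06), and its response differed between genotypes by -0.47 (adjusted p = 0.013). After TAB, Zfand5 (-0.26) and the ligase Ube3c (-0.33) were lower and Zfand2a (0.29) higher in CHIP-/-. Of all features, 6.35% passed as lower and 5.31% as higher in that comparison. Nfe2l1, named here after its values were seen, is the transcription factor that raises proteasome genes when proteolysis is blocked. It fell in CHIP-/- by 0.24 (adjusted p = 0.0013) and differed by -0.07 in wild type. The difference between these responses did not pass: of the 24 genes, Zfand5 alone passed for the interaction, against 5.45% of all features. Among genes for ubiquitin and its activating enzymes, Rps27a, a ubiquitin and ribosomal protein fusion, rose by 0.61 and 0.62. The activating enzyme Uba1 fell in wild type by 0.36, its relative Uba6 rose in wild type by 0.31, and the ubiquitin gene Ubb rose in CHIP-/- by 0.21. Of 16 genes of interferon signalling and class I peptide loading, 14 were measured. In wild type 4 rose and 1 fell with TAB, against 18.7% and 17.1% of all features. In CHIP-/- 5 rose and 0 fell, against 24% and 23.2%. The class I light chain B2m rose by 0.84 and 0.94. After TAB 7 of the 14 were higher in CHIP-/-, against 5.31% of all features, led by Ifit3 (0.68), H2-K1 (0.54) and B2m (0.46). After sham 0 of the 14 passed, against 0.0273% of all features. Of the 14, 12 read higher in CHIP-/- (median 0.19, H2-K1 0.50), beside an all-feature median of -0.0077. The list's medians on an array after sham were 0.27 to 0.46 in wild type and 0.52 to 0.60 in CHIP-/-. Each group was on its own slide, so genotype and slide cannot be told apart in these values. The interaction passed for 0 of the 14 (median 0.03). Psmb8, Psmb9 and Psmb10 differed between genotypes after TAB by 0.07, 0.17 and -0.03 and did not pass.

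Promoter windows from RefSeq (assembly GRCm38.p6, each with the bases around a start site) were found for 36 of the 43 genes. They were searched on both strands for TGACNNNGC, the core of the antioxidant response element to which Nfe2l1 and Nfe2l2 bind. It was present in 6 of 38 windows (15.8%), against 12.4% of all 32851 windows. The 6 genes were Psmb5, Psmb6, Psmc6, Psmd12, Psmd9 and Psme4. On the brightest probes, Psmd12 fell with TAB in CHIP-/-, Psme4 fell in wild type, and Psmc6 passed as higher in CHIP-/-. The Psmd12 fall rests on that probe alone. The Psmc6 rise was not kept under median centring, and its other probe fell. Psmb5, Psmb6 and Psmd9 did not pass with TAB in either genotype. The stretches around the match are shown for 4 of them, 5′ to 3′ on the gene's strand with the match in capitals, chosen because the stretch lies wholly outside the annotated gene. Psmb5's lies at chr14:54618009-54618068 (minus strand), Psmc6's at chr14:45329574-45329633 (plus), Psmd12's at chr11:107479278-107479337 (plus) and Psmd9's at chr5:123228133-123228189 (plus).
Psmb5: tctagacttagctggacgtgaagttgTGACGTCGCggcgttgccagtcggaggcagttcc
Psmc6: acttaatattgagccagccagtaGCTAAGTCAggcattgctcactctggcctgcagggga
Psmd12: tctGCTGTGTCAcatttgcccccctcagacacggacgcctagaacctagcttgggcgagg
Psmd9: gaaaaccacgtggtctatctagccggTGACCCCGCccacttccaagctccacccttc

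The 120 bases upstream of the start are shown for Psmb10 (chr8:105938393-105938512, minus strand) and Psme1 (chr14:55578374-55578493, plus strand), the genes with the largest rise (not kept under median centring) and the largest fall. Neither window held TGACNNNGC. A match is a description of the letters, not a measured binding site.
Psmb10: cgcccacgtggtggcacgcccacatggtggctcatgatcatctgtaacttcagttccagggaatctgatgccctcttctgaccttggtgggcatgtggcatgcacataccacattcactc
Psme1: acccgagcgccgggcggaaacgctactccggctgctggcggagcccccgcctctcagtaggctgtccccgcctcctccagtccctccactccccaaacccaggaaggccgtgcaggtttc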

How the data were processed

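The 2-colour arrays (Agilent pattern 014868) were read with a GenePix 4000B scanner and quantified with Feature Extraction 9.1.3.1, per the file headers. The deposited files hold linear intensities: mean signals, local background medians and the authors' processed signals. The deposited matrix holds log2 ratios, which equalled the processed ratios centred on each probe's median over arrays (slopes 1.00), with column medians of -0.03 to 0.03.

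Mean signals were corrected with normexp (offset 50), normalized by loess within arrays with controls at weight 0, and averaged per probe (limma 3.58.1, R 4.3.3). Outlier-marked spots were left out. The CHIP-/- TAB files hold mean signals to 3 significant digits and 47 altered gene names, so names came from the other files. Probes above background on at least 4 of 16 arrays were kept (14908 of 41174), the brightest stood for a gene, and at least 15 values were required. One model with 4 group means and an intensity trend was fitted to 11000 features and checked on simulated data. Every adjusted p is limma's, Benjamini-Hochberg over all features.

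The members and lists were chosen with earlier results of these data known. Named with values on each array are the immunoproteasome genes, Psmb5, Psmb6, Psmb7 and up to 6 passing genes a comparison. From other lists, up to 4 passing genes a comparison are named.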

Additional observations from a re-analysis of the deposited data

Results flagged for a closer look

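By limma's interaction term, 3 of 42 genes passed for a response to TAB that differed between the genotypes: Psmb2 (-0.43), Psme1 (-0.39) and Psmc5 (-0.32). Of all features 5.45% passed in either direction. The calls stood close to the threshold, and none was kept under median centring or without the intensity trend. The other probe of Psmc5 did not pass.

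In 11 of 167 groups of 4 arrays 1 array stood far from the other 3, by Dixon's 95% criterion, which chance meets in about 1 in 20 groups. In wild-type sham these were Psma8 on replicate 3 (0.24, others 0.49 to 0.53), Psmb6 on replicate 4 (-0.32, others near -0.18), Psmc4 on replicate 1 (-0.15, others -0.29 to -0.28), Psmc6 on replicate 3 (0.45, others 0.33 to 0.35) and Psme4 on replicate 4 (1.19, others 1.37 to 1.38). In CHIP-/- sham they were all on replicate 4: Psma2 (0.20, others 0.30 to 0.31), Psma8 (0.21, others 0.62 to 0.70) and Psmc4 (-0.28, others near -0.24). After TAB they were Psmb8 on wild-type replicate 3 (1.07, others 0.55 to 0.63), Psmd13 on wild-type replicate 2 (-0.42, others -0.18 to -0.14) and Psmd14 on CHIP-/- replicate 4 (-0.43, others -0.19 to -0.15).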

How the results depend on the processing

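All reversals came from median centring in place of loess. It gave 0 higher and 20 lower genes with TAB in wild type, 0 and 32 in CHIP-/-, and 0 lower for the genotype after TAB and for the interaction. The rises then read -0.15 (Psma5), -0.079 (Psma7), -0.25 (Psmb3) and -0.19 (Psme2b) in wild type, and -0.22 (Psma5), -0.35 (Psma7), -0.094 (Psmb10), -0.36 (Psmc6) and -0.067 (Psmd8) in CHIP-/-. The cause was not tested. Of all calls, 8.75% were then higher in wild type and 12.3% in CHIP-/-, against 52.2% and 50.8% with loess.

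The rises in CHIP-/- numbered 2 with the authors' processed signals, 3 with the deposited table, 3 with no filter on dim probes and 2 without the arrays with Y-linked transcripts. Lower genes in wild type numbered 1 without the arrays of high Myl7. Lower genes by genotype after TAB numbered 5 when all 16 arrays had to exceed background. The interaction had 1 lower gene with the processed signals, the deposited table, no filter or without high Myl7, and 0 without the intensity trend or the Y-linked arrays.

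With 1 array left out, the counts ranged from 4 to 7 higher and 4 to 6 lower (TAB in wild type), 3 to 5 and 12 to 14 (TAB in CHIP-/-), 0 to 1 and 1 to 5 (genotype after TAB) and 0 to 1 and 0 to 4 (interaction); after sham all were 0.

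Whether replicate numbers pair the arrays is not settled: 4 of 24 same-numbered pairs correlated above 0.1, against 5 of 72 differently numbered pairs. The median correlations were -0.009 and -0.004, and 7 of 16 arrays correlated best with their own number. With the replicate block the interaction had 1 lower gene (Psme1), Psmb8 passed in wild type (adjusted p = 0.046), and no other call of a proteasome gene on its brightest probe was lost. The slide as a block was not run, because each slide held 1 group.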
